A study of Mus musculus with 2 samples.

Results

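The 8 genes described here are Arg1, Arg2, Nos2, Slc7a2, Odc1, Chil3, Retnla and Mgl2, which serve arginine uptake and use or mark alternatively activated macrophages. They were taken by name, 8 of the 32285 genes counted, with earlier results of these data known, and each name matched 1 row of the count table. The data are counts of unique molecular identifiers (UMIs, 1 per captured transcript) from droplet single-cell RNA sequencing at the 5′ end of transcripts. There were 2 libraries of live CD45+ leukocytes sorted from neonatal mouse hearts, 1 WT and 1 Lyve1 KO, a knockout of the hyaluronan receptor LYVE-1. Infarction (MI) was induced in every mouse 2 days after birth, hearts were collected after 7 more days, when the mice were 9 days old, and each library pooled 5 hearts, of both sexes by the transcripts of sex-linked genes. Each genotype is therefore 1 pool: no difference between them has a replicate check, and intervals given below are exact 95% Poisson or Clopper-Pearson intervals that cover counting error only.

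Macrophages take up L-arginine through cationic amino acid transporters such as the Slc7a2 product CAT-2. Inside the cell, arginase 1 (Arg1, cytosolic) and arginase 2 (Arg2, mitochondrial) split it to ornithine and urea, and inducible nitric oxide synthase (Nos2) oxidises the same substrate to citrulline and nitric oxide. Ornithine decarboxylase (Odc1) then commits ornithine to polyamines. Chil3 (the chitinase-like protein Ym1), Retnla (the secreted resistin-like protein RELMα) and Mgl2 (the galactose-type lectin CD301b) are, with Arg1, the genes classically induced in mouse macrophages by interleukin-4 and interleukin-13 through STAT6, whereas Nos2 is induced by interferon-γ and microbial products.

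On GRCm38, the assembly of the mm10 build named for these files, Arg1 lies on chromosome 10 from 24915221 to 24927484 and Arg2 on chromosome 12 from 79130777 to 79156301. Nos2 lies on chromosome 11 from 78920787 to 78960254, Slc7a2 on chromosome 8 from 40862396 to 40922308 and Odc1 on chromosome 12 from 17544794 to 17551505. Chil3 lies on chromosome 3 from 106147554 to 106167564, Retnla on chromosome 16 from 48842551 to 48844461 and Mgl2 on chromosome 11 from 70130329 to 70137550. All 8 are protein-coding in the GENCODE annotation. RefSeq promoter windows on GRCm38.p6, 250 bases before to 50 bases after the start, were found for 4 of the 8 genes (Chil3, Mgl2, Odc1 and Retnla). The 3 alternative activation genes are shown because they are markers of alternative activation with a window in the table, each only up to the first annotated transcribed base, 5′ to 3′ on the coding strand, with capitals marking matches to the motifs searched.
Retnla, chr16:48842359-48842550, plus strand: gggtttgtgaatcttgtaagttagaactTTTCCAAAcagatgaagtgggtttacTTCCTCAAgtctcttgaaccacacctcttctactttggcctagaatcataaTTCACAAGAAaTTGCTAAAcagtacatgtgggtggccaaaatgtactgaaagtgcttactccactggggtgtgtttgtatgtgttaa
Chil3, chr3:106167565-106167814, minus strand: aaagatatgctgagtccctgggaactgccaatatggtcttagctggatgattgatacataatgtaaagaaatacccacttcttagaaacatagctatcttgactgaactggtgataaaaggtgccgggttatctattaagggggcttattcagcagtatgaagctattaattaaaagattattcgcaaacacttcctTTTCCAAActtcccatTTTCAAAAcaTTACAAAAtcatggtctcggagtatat
Mgl2, chr11:70130107-70130328, plus strand: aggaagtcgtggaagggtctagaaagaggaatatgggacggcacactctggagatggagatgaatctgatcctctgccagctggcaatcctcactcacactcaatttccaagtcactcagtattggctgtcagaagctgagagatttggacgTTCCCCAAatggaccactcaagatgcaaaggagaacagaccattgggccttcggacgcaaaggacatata
The motifs, searched on both strands of the whole 300-base windows, were a STAT6 type (TTC and GAA with any 4 bases between), a C/EBP type (TTNCNNAA, N being any base) and a kappa-B type (GGG and TTCC with any 3 bases between), and they were held by 6.95%, 40.7% and 5.56% of the 32851 promoter windows. Retnla held 1 STAT6-type match, TTCACAAGAA, starting 145 bases before the RefSeq start, and 3 C/EBP-type matches, of which TTGCTAAA started 1 base after the STAT6-type match ended. Chil3 held 3 C/EBP-type matches within its last 53 bases, Mgl2 held 1, and Odc1 held none of the 3 motifs. A match describes letters in the window and was not tested as a binding site.

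Reads of near copies could have been exchanged in the authors' counting. Over the bases that aligned, the longest transcripts of Chil3 and Chil4 were 94.7% identical and those of Mgl2 and Clec10a 94.5%. The values were 85.6% for Retnla and Retnlg, 80.3% for Retnla and Retnlb and 71.9% for Arg1 and Arg2. For Mgl2 and Clec10a only 1143 bases aligned, of transcripts 1635 and 2332 bases long. In the macrophage-like and monocyte-like cells together, Chil4 had 0 UMIs in WT and 2 in KO beside 1806 and 4316 for Chil3. Retnlg had 32 and 20 beside 15496 and 40771 for Retnla, and Retnlb had 0 in both. Clec10a, with 5024 and 3258 UMIs, was close in number to Mgl2, with 4524 and 4220, so the division between those lectins is less certain.

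After limits on genes, UMIs and mitochondrial share and removal of the highest doublet scores, 4180 WT and 3367 KO cells remained, with medians of 11156 and 12798 UMIs per cell. Only 3 of these barcodes occurred in both libraries. Cells were clustered without the 8 genes and the other genes of their pathways, and clusters were called X-like from marker lists. CCR2- macrophage-like cells numbered 1024 in WT and 422 in KO, CCR2+ macrophage-like cells 236 and 221, and monocyte-like cells 419 and 451. A cluster led by Saa3, Prg4 and Marco, with 62 and 52 cells, carried the markers of serous cavity macrophages, Gata6 among them, with 6 of 8 listed markers in at least 25% of WT cells and 8 of 8 in KO, and was kept as a class of its own. The CCR2+ class consisted of a Spp1 cluster (199 and 186 cells) and a Cd209a cluster (37 and 35 cells). The Cd209a cluster was led by Cd209a, which is on the dendritic cell list, and by the CCR2+ markers H2-Ab1 and H2-Eb1. The Spp1 cluster had none of its own markers and 1 marker of type 2 innate lymphoid cells (ILC2), Il7r, among its 10 leading genes, so it is described by its number of cells and leading gene beside the class. Lyve1 transcripts over all kept cells stood at 249.1 CPM (UMIs scaled to a common total per library or class) in WT and 12.9 in KO.

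**Figure D1:**
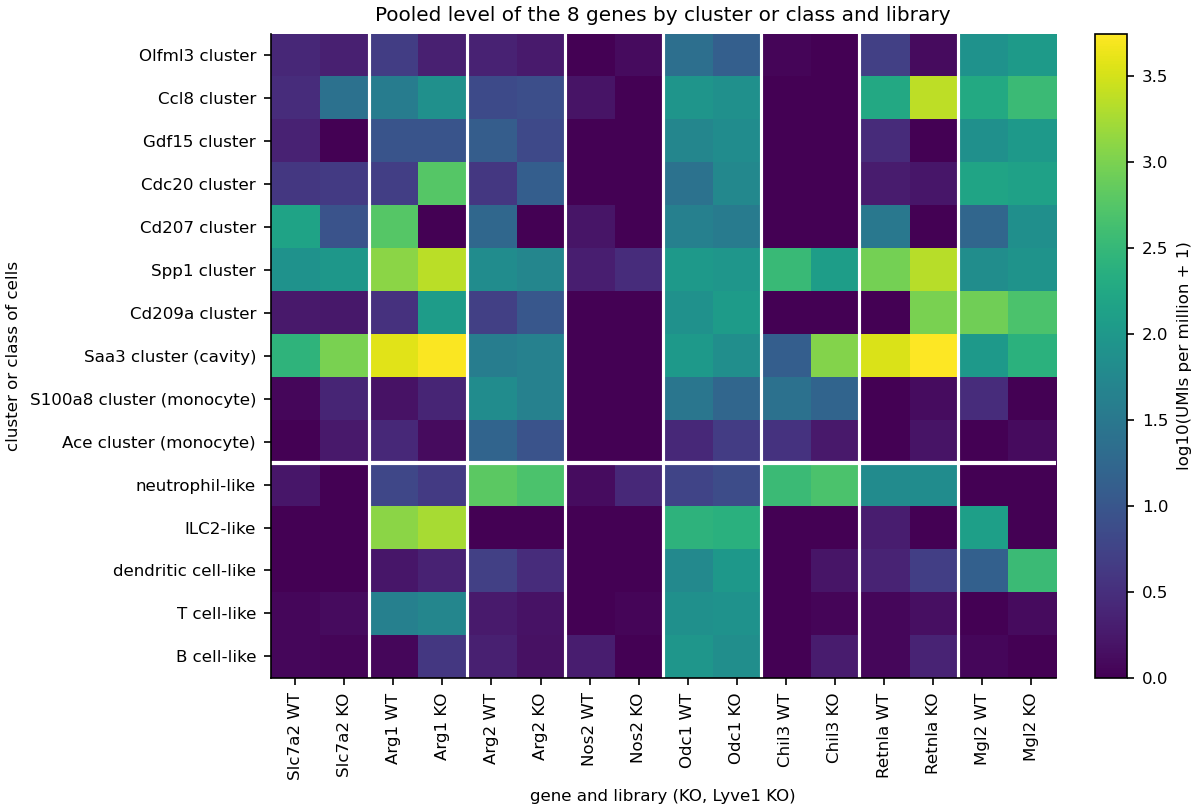
Level of each gene as log10(CPM + 1) in the WT and Lyve1 KO (KO) libraries, by macrophage and monocyte cluster (above the white line, named by leading gene) and by other leukocyte class (below it). Arg1, Slc7a2 and Retnla are highest in the Saa3 cluster, Arg2 in neutrophil-like cells, and Nos2 is near 0 throughout; the Cd207 cluster holds 17 KO cells.

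The arginine transporter gene Slc7a2 was concentrated in the cavity macrophage-like cells of both libraries. In WT its 796 UMIs there gave 268.4 CPM (250.1 to 287.8) and came from 41 of 62 cells, and in KO its 3140 UMIs gave 982.3 (948.2 to 1017) and came from 42 of 52 cells. That small class held 52.0% of all Slc7a2 UMIs in WT and 78.2% in KO. The share of positive cells, counted after every cell was thinned to 10200 UMIs, was 49.2% in WT and 69.4% in KO, and the median positive cell carried 10 UMIs in WT and 41.5 in KO, at median depths of 47270 and 61413 UMIs per cell. The KO cells of this class were thus higher both in share and in amount per positive cell. Leaving out the highest cell of each library moved the log2 ratio, KO over WT, only from 1.83 to 1.85. The make-up of the class also differed: Gata6 stood at 22.3 CPM in WT and 53.8 in KO, and the CCR2- marker Folr2 at 561.8 and 326.3. Summed cavity markers went the other way from Gata6, at 10410 and 7054. The part of this make-up in the Slc7a2 difference, and in other differences of the class, was not tested.

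In the Spp1 cluster Slc7a2 was similar in both libraries, at 80.9 CPM in 55 of 199 WT cells and 93.7 in 64 of 186 KO cells. In CCR2- macrophage-like cells it was low, at 11.2 in WT (65 cells) and 9.57 in KO (20 cells). Most of the WT amount there, 233 of 283 UMIs, lay in a small Cd207 cluster in which 28 of 73 cells were positive and 1 cell held 122 UMIs. The KO library held 17 cells of that cluster, 2 of them positive with 3 UMIs in all. In the KO library the amount lay instead in the Ccl8 cluster, with 94 UMIs in 8 of 129 cells, of which 43 in 1 cell, against 10 UMIs in 6 of 189 WT cells. Monocyte-like cells held 1 Slc7a2 UMI in WT and 12 in 11 cells in KO.

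Arg1, the cytosolic arginase, followed a similar division of cells. Cavity macrophage-like cells were nearly all positive, 54 of 62 in WT and 51 of 52 in KO, at 3763 CPM (3694 to 3834) and 5329 (5249 to 5409). The Spp1 cluster came next, with 1240 CPM (1209 to 1273) in 108 of 199 WT cells and 2260 (2220 to 2299) in 122 of 186 KO cells. These classes together held most of the Arg1 UMIs of each library: 56.4% and 50.3% lay in cavity macrophage-like cells and 29.4% and 37.9% in the CCR2+ class. Neither level rested on a single cell, since the 5 highest cells of the Spp1 cluster held 29.8% of its Arg1 UMIs in WT and 26.0% in KO.

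The KO library was higher in both places by less than the 2-fold limit used here, with log2 ratios of 0.50 (0.47 to 0.54) in cavity macrophage-like cells and 0.86 (0.82 to 0.90) in the Spp1 cluster. After thinning, 50% of WT and 57.5% of KO cells of the Spp1 cluster were positive. Arg1 expression was uneven within the cluster: 11 WT cells and 13 KO cells held 50% of its UMIs, while 91 and 64 cells had none. In the Cd209a cluster Arg1 was nearly absent, with 3 UMIs in 1 WT cell and 160 in 4 KO cells, 139 of them in 1 cell.

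CCR2- macrophage-like cells carried little Arg1, and that little was held by very few cells. The WT level of 45.8 CPM came from 45 of 1024 cells, and 1 cell of the Cd207 cluster held 699 of the 1161 UMIs. The KO level of 103.5 came from 36 of 422 cells, and 5 cells held 87.4% of 1179 UMIs. The clusters differed too: 865 of the KO UMIs lay in 6 of 40 cells of a Cdc20 cluster, which held 17 UMIs in 5 of 138 WT cells. The Cd207 cluster held 889 UMIs in 9 of 73 WT cells and 0 in 17 KO cells. The class ratio thus sets mostly different clusters against each other. The log2 ratio of 1.02 stood just past the 2-fold limit, but it was 1.55 without the highest cell of each library, 0.48 without the 5 highest and -1.12 when the libraries were clustered without integration. The typical positive cell carried 2 UMIs in either library. Among B cell-like cells, which serve here as a measure of free RNA, 0.234% of WT and 1.41% of KO cells had an Arg1 UMI, at median depths of 10818 and 13132. Monocyte-like cells had 1.19% in WT (5 of 419, 7 UMIs) and 1.33% in KO (6 of 451, 10 UMIs), so that the KO share was no higher than that of B cell-like cells and the WT share was higher, on 5 cells. The Olfml3 cluster had 1.66% in WT (7 of 421, with 29 of 36 UMIs in 1 cell) and 2.55% in KO (4 of 157, 4 UMIs).

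Arg2, the mitochondrial arginase, had a different distribution. Neutrophil-like cells held 64.3% of its UMIs in WT and 63.5% in KO, at 638.7 CPM in 297 of 351 cells and 488.1 in 266 of 336 cells. Among mononuclear cells it was spread over many cells with few UMIs each: the S100a8 cluster of monocyte-like cells stood at 66.2 in WT (93 of 241 cells) and 43.4 in KO (72 of 241), and the Spp1 cluster at 65.1 (82 cells) and 51.6 (77 cells). The Ace cluster of monocyte-like cells was lower, at 14.9 and 8.02, as were CCR2- macrophage-like cells, at 4.97 and 4.91. In the monocyte-like class the KO library was lower by 0.59 on the log2 scale (a ratio of -0.59, from -0.76 to -0.42), within the 2-fold limit, and the thinned share of positive cells was 23.8% in WT and 13.2% in KO. Cavity macrophage-like cells, so rich in Arg1, had 37.4 and 42.9 Arg2 CPM.

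Nos2, the enzyme that competes with the arginases for arginine, was almost undetected. All kept cells held 38 Nos2 UMIs in 18 WT cells and 44 in 12 KO cells, and fibroblast-like cells held 22 and 26 of these. CCR2- macrophage-like cells had 4 UMIs in WT and 1 in KO, and CCR2+ macrophage-like cells 5 and 11, each in 3 cells. Monocyte-like and cavity macrophage-like cells had 0 UMIs in both libraries. A floor of 3 UMIs, given here in place of an interval, would be 0.377 and 0.305 CPM in WT and KO monocyte-like cells. In the cavity macrophage-like cells it would be 1.01 and 0.939. Nos2 was thus not detectable at this depth in the cells richest in Arg1, while Gch1, which makes the cofactor of the enzyme, was measured there at 175.4 and 174.9 CPM.

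Odc1, downstream of the arginases, was the most widely detected of the 8 genes, in 932 WT and 760 KO cells. It stood at 97.1 CPM in WT and 96.7 in KO in the CCR2+ class, with 100 positive cells in each library. CCR2- macrophage-like cells had 42.1 in 343 cells and 48.5 in 152 cells, and monocyte-like cells 20.3 and 11.6. Cavity macrophage-like cells had 103.9 in 47 of 62 cells and 69.4 in 35 of 52 cells, a log2 ratio of -0.52 (-0.74 to -0.29). The cells in which Slc7a2 and Arg1 were higher in the KO library were therefore not higher in Odc1. Within the CCR2- class the Ccl8 cluster had 88.2 and 74.8, several times the Olfml3 cluster with 22.6 and 12.8. Odc1 was also present in lymphoid cells, at 264.9 and 236.2 in ILC2-like, 91.4 and 70.6 in B cell-like and 74.4 and 81.2 in T cell-like cells.

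**Figure D2:**
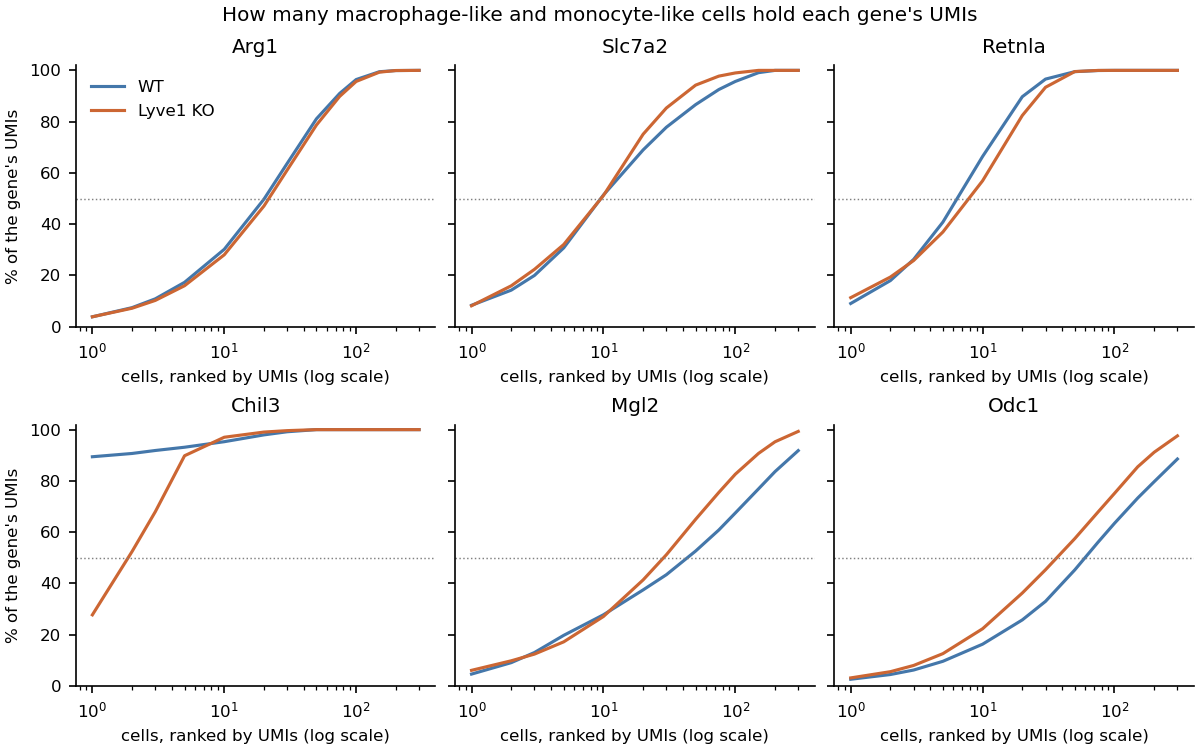
Cumulative share of each gene's UMIs (%, vertical axis) against the number of cells, ranked from the highest (log scale), over the macrophage-like and monocyte-like classes of each library; the dotted line marks 50%. For Arg1, 21 WT and 22 KO cells hold 50% of the UMIs, and for Retnla 7 and 9, whereas Odc1 and Mgl2 need between 29 and 60.

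Over the macrophage-like and monocyte-like classes together, 1741 WT and 1146 KO cells, the 8 genes differed in how many cells accounted for their UMIs. Arg1 was found in 213 and 219 of these cells and Retnla in 85 in each library, and 50% of the UMIs lay in 21 and 22 cells for Arg1 and in 7 and 9 for Retnla. For Slc7a2 10 cells held 50% in each library, and for Chil3 1 cell in WT and 2 in KO. Mgl2 needed 44 and 29 cells and Odc1 60 and 37. The plot of cumulative shares shows the curves of the libraries nearly on each other for Arg1 and far apart for Chil3.

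Chil3 was confined to few cells, and its pooled levels describe those cells and not their classes. CCR2- macrophage-like cells held 1 Chil3 UMI in WT and 0 in KO. In the CCR2+ class all its UMIs lay in the Spp1 cluster: 1631 in 6 WT cells, of which 1615 in 1 cell, and 681 in 7 KO cells, of which 445 in 1 cell. The log2 ratio of -1.41 in the CCR2+ class changed sign to 1.79 without the highest cell of each library. The single WT cell held Siglecf, Plet1 and Atp6v0d2, 3 of 10 listed markers of alveolar macrophages, with Ear2 at 2626 CPM against 52.2 in the other 235 cells, and none of the 8 cavity markers. The 5 KO cells with at least 10 Chil3 UMIs carried between 0 and 5 of the 10 alveolar markers, with a median of 0. Whether cells with alveolar markers account for the Chil3 of this class was not tested.

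Chil3 in cavity macrophage-like cells stood at 12.1 CPM in WT, from 36 UMIs in 3 cells, and at 1107 in KO, from 3538 UMIs in 9 cells. Of the KO UMIs, 98.8% lay in 5 cells and 50% in 2, and the log2 ratio of 5.66 was 1.34 without the 5 highest cells of each library. All 9 KO and 3 WT positive cells were male by their sex-linked transcripts, and female cavity macrophage-like cells had 0 Chil3 UMIs in both libraries. Female cells of the class were few, 16 in WT and 8 in KO beside 43 and 41 male cells, so absence of Chil3 from them is weakly measured. The 6 KO cells with at least 10 Chil3 UMIs all carried Gata6, Prg4, Saa3, Selp, F5, Icam2, Garnl3 and Marco and none carried Ccr2. Against the other 46 KO cells of the class they had more Prg4 (3197 and 1335 CPM) and less Mrc1, the mannose receptor (42 and 732). Of the alveolar markers, Car4, Krt79, Plet1, Fabp1, Cidec, Ear1 and Atp6v0d2 were at 0 in them.

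Chil3 was detected at lower amounts in monocyte-like cells, with 138 UMIs in 35 WT cells and 97 in 31 KO cells, nearly all in the S100a8 cluster (132 and 94). The 3 WT cells of this class with at least 10 Chil3 UMIs carried 4 to 5 of 10 neutrophil markers. Neutrophil-like cells held 1015 UMIs in 20 of 351 WT cells and 1432 in 31 of 336 KO cells, with 586 in 1 KO cell.

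Retnla, the resistin-like gene, was carried by few cells with many UMIs each. In cavity macrophage-like cells it was present in 31 of 62 WT cells at 3421 CPM (3354 to 3488) and in 32 of 52 KO cells at 5538 (5457 to 5621). The log2 ratio there was 0.69 (0.66 to 0.73), and the thinned share of positive cells was 40.7% in WT and 57.1% in KO. Positive cells ranged up to 1402 UMIs in WT and 3283 in KO, and 5 WT and 4 KO cells held 50% of the UMIs. The highest cells differed in their markers between the libraries. WT cells with 1402, 1386, 1196 and 1057 UMIs carried 1, 3, 1 and 2 of 8 cavity markers and 10, 8, 10 and 8 of 12 CCR2- markers. KO cells with 3283 and 2389 UMIs carried 8 and 7 cavity markers and 4 and 4 CCR2- markers.

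In CCR2- macrophage-like cells Retnla stood at 40.4 CPM in WT and 827.2 in KO, a log2 ratio of 4.05. The difference came from the amount per cell more than from the number of cells: 35 of 1024 WT cells (3.42%, 2.39 to 4.72) and 28 of 422 KO cells (6.64%, 4.45 to 9.45) were positive, with medians of 4 and 18 UMIs. The Ccl8 cluster, whose leading genes include Lyve1 itself, held 928 of the 1024 WT UMIs and 9281 of the 9426 KO UMIs. In that cluster 22 of 189 WT cells gave 181.2 CPM and 25 of 129 KO cells gave 2354. The highest WT cell held 615 UMIs and the highest KO cell 2625, and the 5 highest KO cells held 83.4% of the cluster's UMIs. The log2 ratio over the class stayed past the 2-fold limit without the highest cell of each library (4.54) and without the 5 highest (3.23). Summed cavity markers in this class were 31.0 CPM in WT and 66.8 in KO, and the highest KO cell carried 9 of 12 CCR2- and 0 of 8 cavity markers.

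The Spp1 cluster had 924.2 Retnla CPM in WT, from 19 of 199 cells, and 2197 in KO, from 17 of 186. The share of positive cells was 8.97% in WT and 8.98% in KO after thinning. The pooled difference thus lay in the amounts of a few cells, of which the highest held 1282 of 4329 UMIs in WT and 4616 of 12310 in KO. The KO cell with 4616 UMIs carried 8 of 12 CCR2- and 8 of 10 CCR2+ markers and had a doublet score at percentile 97.2. The WT cell with 1282 UMIs carried 9 and 7 of these markers and had a doublet score at percentile 99.7. In the CCR2+ class as a whole the log2 ratio was 1.40, and thinned to a fixed depth per cell it was 0.97. In the Cd209a cluster 1 KO cell held 1278 of 1326 UMIs, and WT had none.

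Monocyte-like cells had 0 Retnla UMIs in WT and 4 in 4 KO cells, a share of 0.887% that was below the 1.41% of KO B cell-like cells. Low Retnla counts were found in a larger share of shallow KO than WT cells: in the kept clusters of low depth 7.43% of 835 WT cells and 30.9% of 553 KO cells had at least 1, at median depths of 1270 and 926 UMIs. The part of free Retnla RNA in the low counts of the other classes was not tested. At least 10 Retnla UMIs were carried by 11 WT and 15 KO cells of the CCR2- class, 12 and 16 of the CCR2+ class and 22 and 25 of the cavity macrophage-like class.

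**Figure D3:**
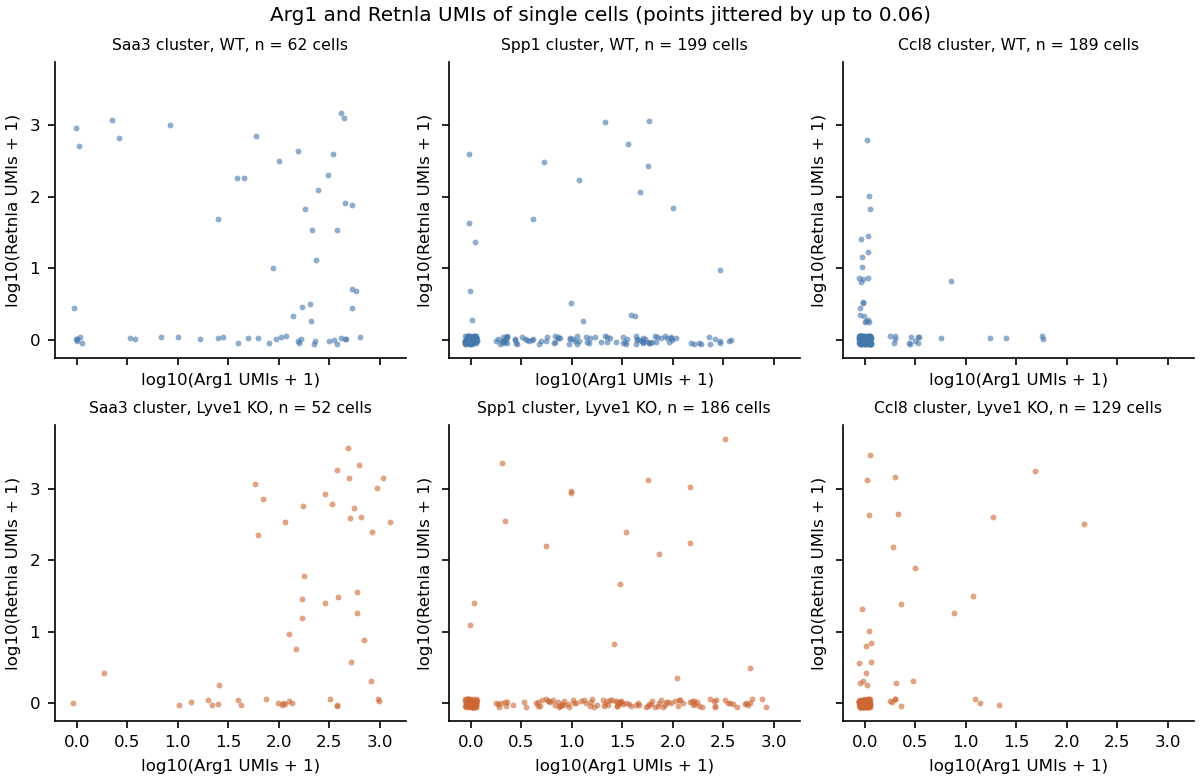
Arg1 (horizontal) and Retnla (vertical) UMIs per cell, as log10(UMIs + 1) with points jittered by up to 0.06, in the Saa3, Spp1 and Ccl8 clusters of the WT (top) and Lyve1 KO (bottom) libraries. In the Saa3 cluster 51 of 52 KO cells carry Arg1, all 32 Retnla-positive cells among them. In the Spp1 cluster most Arg1-positive cells lack Retnla. In the Ccl8 cluster Retnla-positive cells with little Arg1 reach higher Retnla counts in KO.

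Mgl2, unlike Chil3 and Retnla, was widely detected in CCR2- macrophage-like cells. It was found in 465 of 1024 WT cells at 111.8 CPM (107.8 to 116) and in 235 of 422 KO cells at 203.2 (195 to 211.6). The log2 ratio was 0.81 (0.73 to 0.88), and no cell held more than 11.1% of the UMIs. The Ccl8 cluster was again the highest within the class, at 184.3 in 132 of 189 WT cells and 360.7 in 103 of 129 KO cells, and the Olfml3 cluster had 81.1 and 108. The highest levels of all were in the Cd209a cluster, with 855.6 in 16 of 37 WT cells and 474.8 in 17 of 35 KO cells.

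Mgl2 was found in 27 of 62 WT cavity macrophage-like cells at 105.2 CPM and in 38 of 52 KO cells at 244, a log2 ratio of 1.14 (0.96 to 1.32). After thinning, 33.9% and 49.0% of cells were positive. Monocyte-like cells had 11 UMIs in 4 WT cells and 1 in KO. Clec10a, the near copy of Mgl2, had a ratio in the other direction in cavity macrophage-like cells, at 172 CPM in WT and 101.7 in KO.

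Counted over the genes with at least 100 UMIs in a class over both libraries, the members past a 2-fold difference (a log2 ratio of CPM plus 10 of at least 1 in size) numbered between 0 and 3 in each class. In CCR2- macrophage-like cells 2 of 6 members were past it in the KO library, Arg1 and Retnla, both higher, where 0.0929% of 10768 genes were higher and 0.121% lower. With 10 CPM added, a gene at 100 UMIs could not pass the limit in this large class, so that share includes genes that could not be called. The shares of all genes, here and below, were not matched to the members in abundance. In the Spp1 and Cd209a clusters together 1 of 7 was higher (Retnla) and 1 lower (Chil3), where 0.236% of 8462 genes were higher and 0.307% lower. In monocyte-like cells 0 of 3 were past the limit, where 0.0455% of 8793 genes were higher and 0.284% lower. In cavity macrophage-like cells 3 of 7 were higher (Slc7a2, Chil3 and Mgl2), where 0.756% of 6482 genes were higher and 0.679% lower. That class was added after its values were seen, so its count is a description only. The median log2 ratio of the members was 0.49, -0.01, -0.49 and 0.69 in these 4 classes, and the median of all genes lay between -0.05 and 0.00 in each. The Arg1 call in the CCR2- class and both Chil3 calls rest mostly on 5 or fewer cells of a library, and so do both Retnla calls, with 82.4% of WT and 82.2% of KO Retnla UMIs in 5 cells of the CCR2- class and 82.1% and 78.3% in 5 cells of the CCR2+ class. The Mgl2 call in cavity macrophage-like cells was lost as a mean over cells (0.65), after thinning (0.80) and in male cells alone (0.90).

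**Figure D4:**
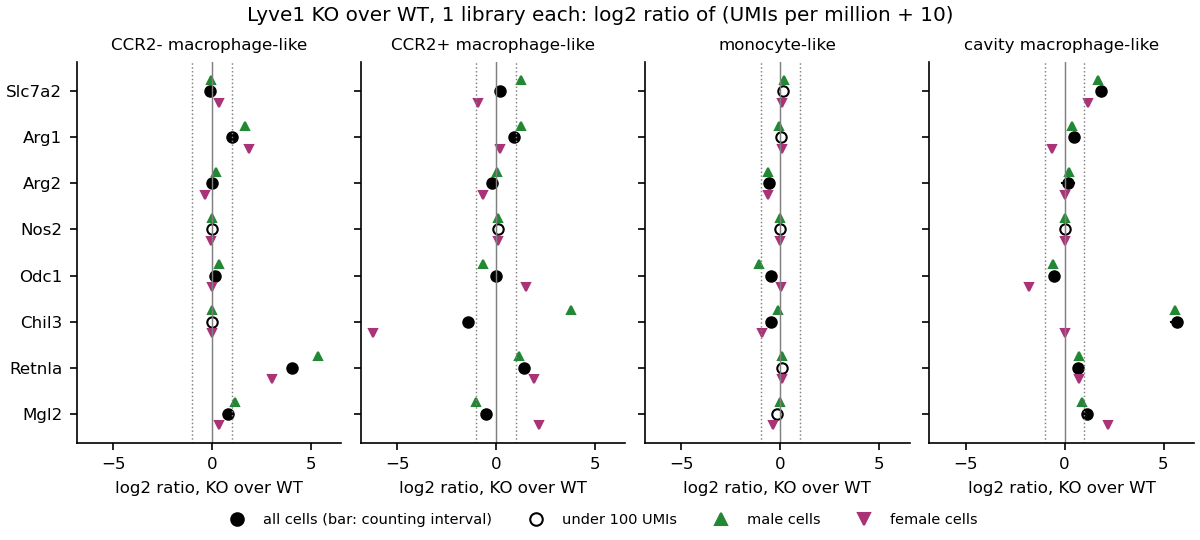
Log2 ratio of CPM plus 10, Lyve1 KO over WT, of each gene in 4 classes of cells: black points are all cells with bars for counting error only (open under 100 UMIs), and triangles are male and female cells. Dotted lines mark a 2-fold difference. Retnla in CCR2- macrophage-like cells (4.05) and Slc7a2 in cavity macrophage-like cells (1.83) lie past it to the right for all, male and female cells, whereas Chil3 in the CCR2+ class takes opposite signs in the sexes.

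Both pools held male and female hearts, and cells could be divided by sex-linked transcripts, while the count matrices used here do not assign cells to hearts. Retnla in CCR2- macrophage-like cells went from 8.82 CPM in WT to 765.7 in KO in male cells and from 109 to 972.1 in female cells, with 20, 19, 14 and 9 positive cells. Slc7a2 in cavity macrophage-like cells went from 313.9 to 1024 in male and from 184.1 to 431.2 in female cells, of which that class held only 16 in WT and 8 in KO. Both differences therefore had the same direction in each sex. Arg1 in the CCR2+ class was 933.9 and 2240 in male cells but 1090 and 1245 in female cells, and in cavity macrophage-like cells it was 4349 and 5646 in male but 2281 and 1475 in female cells.

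Of the other genes of these pathways, 100 genes in 8 lists with the members included, few differed by 2-fold. No gene of the lists for citrulline recycling, polyamines, tetrahydrobiopterin, interleukin-4 and interleukin-13 signalling or induction of nitric oxide synthase passed the limit in any of the 4 classes. Of the transport and arginine use lists, Slc7a2 and Arg1 were the only ones. Of the 5 citrulline genes only 1 or 2 had at least 100 UMIs in a class, and of the 20 polyamine genes 16 to 19. Among all genes of the classes, 0.0455% to 0.756% were past the limit as higher and 0.121% to 0.679% as lower. No gene past it in lists this short is thus near the share of all genes. The most abundant of the transport list, Slc3a2 (the heavy chain CD98 shared by several transporters), stood at 328.3 and 315.8 CPM in CCR2- macrophage-like cells. Gatm, which uses arginine for creatine, stood at 490.5 and 490.1 there. The arginine-forming enzymes Asl and Ass1 were low, at 38.2 and 29.8 and at 0.829 and 2.55, although Ass1 reached 92.2 and 81.4 in the CCR2+ class. The polyamine regulators Oaz1 (antizyme, which marks Odc1 for degradation) and Sat1 (polyamine acetylation) were high, at 928.6 and 843.6 and at 772.1 and 824.2. Il4ra and Stat6, receptor and transcription factor of the interleukin-4 pathway, were alike in both libraries in that class, at 112.5 and 115.3 and at 106.6 and 104.8. Klf4 stood at 255.9 and 309.9 and Cebpb, a C/EBP factor, at 539.5 and 649.7.

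The alternative activation list was mixed. In the CCR2+ class 14 of the 18 list genes found in the table had enough UMIs: Ccl24 (323.6 and 754 CPM), Ear2 (71.9 and 255.2) and Retnla were past the limit as higher in KO, and Ccl17 (42.6 and 10.2), Ccl22 (71.2 and 14.6), Cd209d (71.1 and 28.8) and Chil3 as lower. The UMIs of Ccl17 came from 16 WT and 6 KO cells and those of Ccl22 from 17 and 9. Summed dendritic cell markers of the CCR2+ class stood at 526.5 CPM in WT and 241.4 in KO, and their part in these ratios was not tested. In cavity macrophage-like cells Alox15 was past the limit, with 312.6 in 13 WT cells and 876.8 in 29 KO cells, beside Chil3 and Mgl2, of 10 genes. Mrc1 did not go with them there, at 1045 and 645. In CCR2- macrophage-like cells Mrc1 was present in 1021 of 1024 WT and 418 of 422 KO cells at 2366 and 2447, and Retnla alone of 8 genes passed the limit. In monocyte-like cells Mrc1 was past it as lower, with 202 UMIs in 27 WT cells and 23 in 15 KO cells.

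Within cells, the transporter and the arginase were found together. Among cavity macrophage-like cells 39 of 41 Slc7a2-positive WT cells and 41 of 42 KO cells also had Arg1. Arg1 was in 54 of 62 WT and 51 of 52 KO cells of that class, so this overlap says little about pairing. In the Spp1 cluster, where Arg1 divides the cells more evenly, Slc7a2 was found after thinning in 33.3% of Arg1-positive and 6.41% of Arg1-negative WT cells, and in 30.2% and 11.3% in KO. Arg2 was likewise found in 51.3% of Arg1-positive and 20.5% of Arg1-negative WT cells after thinning, and in 28.1% and 21.1% in KO.

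Retnla paired with Mgl2 in the macrophage classes. In the Spp1 cluster, after thinning, Mgl2 was found in 64.3% of Retnla-positive and 9.86% of Retnla-negative WT cells, and in 53.3% and 9.21% in KO, with 14 and 15 Retnla-positive cells. In CCR2- macrophage-like cells it was found in 64% and 33.1% in WT and in 63.6% and 40.9% in KO after thinning. In cavity macrophage-like cells 28 of 31 Retnla-positive WT cells and all 32 KO cells had Arg1, as did 54 of 62 and 51 of 52 cells of the class. After thinning, Retnla was found there in 38% of Arg1-positive and 55.6% of Arg1-negative WT cells. In KO it was found in 59.6% and 0%, with 47 of 49 cells Arg1-positive. Of the Retnla-positive CCR2- macrophage-like cells, 6 of 35 had Arg1 in WT and 12 of 28 in KO. In that class Retnla was found in 13.3% of Arg1-positive and 2.96% of Arg1-negative WT cells, and in 33.3% and 4.15% in KO.

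Across the 20 cluster pools of the macrophage-like and monocyte-like cells (clusters of 1 library with at least 20 cells), the member closest to Arg1 was Slc7a2, with a Pearson r of 0.879 on log2(CPM + 10), and Retnla followed Arg1 with 0.810 and Slc7a2 with 0.756. These points share libraries and the Saa3 cluster lies at one end of them, so r is a description. Among 11787 genes, those closest to Arg1 were Gm36172 (0.897), Slc7a2 and Cxcl3 (0.871), and to Slc7a2 were Mamld1 (0.914), Adarb1 (0.905) and Gm36172 (0.904). Closest to Retnla were Cdk8 (0.885), Mamld1 (0.863) and Cmss1 (0.857), and to Chil3 were Ptgfrn (0.862), Slfn4 (0.854) and Gm36172 (0.817). Arg2 was closest to Thbs1 (0.955), Fn1 (0.915) and Slc7a11 (0.910), and among the members its r was 0.744 with Chil3, 0.574 with Arg1, 0.549 with Slc7a2 and -0.381 with Mgl2. Mgl2 had r of 0.248 with Arg1, 0.136 with Slc7a2 and 0.396 with Retnla. It was closest to Marveld1 (0.873), Cltb (0.865) and Bend4 (0.849), and Odc1 to Mrps28 (0.919), Eif4a1 (0.912) and Slc39a14 (0.895).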

How the data were processed

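The authors aligned the reads to mm10 with Cell Ranger (version 8.0.1 per the labels) and deposited raw UMI counts per gene and cell, 1 matrix for each library. Barcodes below 500 genes or 250 UMIs or above 30% mitochondrial UMIs were removed, and the highest doublet scores, 0.4% per 1000 barcodes, were left out because the automatic threshold called 0 doublets. Libraries were integrated and clustered with Seurat 5.3.0 on 2000 variable genes without the pathway genes (30 dimensions, resolution 0.8). Clusters took the name whose list had at least 3 markers in 25% of cells. UMIs were then summed per class and library and scaled to CPM. Log2 ratios, KO over WT, had 10 CPM added, and thinned shares used 10200 UMIs per cell. With 1 library per genotype no test across samples was possible. The genes and lists were chosen with earlier results of these data known, and 13 alternatives were run. Named genes were the 8 members, the list genes past the 2-fold limit, the 2 most abundant of each list and the 3 genes most like each member; Il4ra, Stat6, Clec10a and Alox15, and the cavity macrophage-like class, were added after their values were seen. Scripts were tested on simulated data where they computed values across genes.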

Additional observations from a re-analysis of the deposited data

Results flagged for a closer look

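Arg1 and Retnla UMIs were also present in barcodes that the limits on genes, UMIs and mitochondrial share left out. In WT 1428 such barcodes held 43 Arg1 and 52 Retnla UMIs, and in KO 1821 barcodes held 200 and 283, or 25.6 and 31.0 CPM in WT and 109 and 154 in KO. In the CCR2+ macrophage-like class the log2 ratio, KO over WT, took opposite signs in the sexes for Chil3, at 3.76 in male and -6.23 in female cells, and for Mgl2, at -1.05 in male and 2.18 in female cells. These differences between the sexes were not tested, and female cells held 0 Chil3 UMIs in KO.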

How the results depend on the processing

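In CCR2- macrophage-like cells the number of members past the 2-fold limit was 1 in place of 2 with doublet scores kept, with all variable genes, without cell cycle regression, at resolution 1.2 and, added after seeing the data, without the 5 highest cells of each library, and 4 when cavity cells were counted with the class. In the CCR2+ class it was 1 in place of 2 as a mean over cells and without the 5 highest cells, 5 in male cells, 4 in female cells and 0 after thinning. In monocyte-like cells it was 1 in male cells in place of 0. The log2 ratio of Arg1 among CCR2- macrophage-like cells was -1.12 without integration. Chil3 in the CCR2+ class had 1.79 without the highest cell, 3.76 in male cells and 0.057 without the 5 highest cells. The cause was not tested. Retnla in CCR2- macrophage-like cells (2.21 to 5.37) stayed past the limit in 15 of 15 settings and Slc7a2 in cavity macrophage-like cells (1.18 to 1.98) in 14 of 14, whereas Mgl2 in cavity macrophage-like cells (0.65 to 2.21) did so in 11 of 14. No paired analysis was possible because each genotype has 1 library, and the count matrices used here do not assign cells to hearts.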

Other observations

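Outside the macrophages, Arg1 was a gene of ILC2-like cells, at 1219 CPM in 45 of 48 WT cells and 1797 in 48 of 50 KO cells. T cell-like cells had 42.2 in 23 cells and 51.0 in 28 cells. Dendritic cell-like cells held 19 Mgl2 UMIs in 3 WT cells and 547 in 4 KO cells, 462 of the latter in 1 cell. Neutrophil-like cells held 183 Retnla UMIs in 5 WT cells and 199 in 7 KO cells, beside the Arg2 and Chil3 described above.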
